A study of Mus musculus with 2 samples.

Results

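The genes described here are 10 genes of renal phosphate transport and its hormones, namely the sodium-phosphate cotransporters *Slc34a1*, *Slc34a3*, *Slc20a1* and *Slc20a2*, klotho (*Kl*) and the FGF receptor *Fgfr1*, the vitamin D hydroxylases *Cyp27b1* and *Cyp24a1*, the parathyroid hormone receptor *Pth1r*, and the scaffold protein *Slc9a3r1*. They were chosen by name, and every probe that the array assigns to one of these names was taken. All 10 were among the 31829 gene names on the array and among the 19708 genes that could be compared.

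The kidneys came from mice aged 2 months, of which the knockout was *Cnnm2*fl/fl;*Six2-Cre* and the control *Cnnm2*+/+;*Six2-Cre*, so that both genotypes carry the *Six2-Cre* transgene, whose expression in the embryonic kidney limits the deletion to that organ. *Cnnm2* encodes a membrane protein linked to magnesium handling. RNA was hybridized to 2 arrays of 2 colours: the knockout was labelled with Cy5 and the control with Cy3 on array 1, and the dyes were exchanged on array 2. The number of mice behind each RNA is not given, and the arrays were taken as 2 measurements of 1 replicate per genotype, so an SD below is the spread between the arrays. Tests that take the arrays as separate samples were run only as alternatives, and they leave out the spread between mice.

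The kidney proximal tubule reclaims filtered phosphate through cotransporters in its brush border. Parathyroid hormone, through its receptor, and FGF23, through FGF receptors that need klotho as a coreceptor, are known to lower the amount of these cotransporters and to act in opposite ways on the enzymes that make and degrade active vitamin D. The scaffold NHERF1, the product of *Slc9a3r1*, holds cotransporter and receptor at the membrane.

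The 10 genes had 15 probes with 1 spot each per array, and 14 of them exceeded background in each of the 4 channels. The sequences below belong to the probes on which the values of most interest rest. They are given 5′ to 3′ as printed on the array, with cytosines in capitals, because base composition moved with the difference between the dyes (below). The first pair shows probes of *Slc34a1* whose ratios ran in opposite directions, the *Fgfr1* and *Pth1r* probes are further examples with opposite directions on the arrays, and the last 3 belong to the genes with the highest mean ratio, the smallest spread and the lowest ratio on array 1. Of *Slc34a1* A_51_P498442 and of the last 3, the first 30 bases are shown.
*Slc34a1* A_51_P498442 (chr13:55515201-55515259, plus strand): aaataCatgCttaggtaCtgagCCtgtgtg
*Slc34a1* A_55_P1991891 (chr13:55514826-55514885, plus strand): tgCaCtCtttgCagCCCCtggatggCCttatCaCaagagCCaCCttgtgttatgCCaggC
*Fgfr1* A_55_P1967022 (chr8:26684061-26684120, plus strand): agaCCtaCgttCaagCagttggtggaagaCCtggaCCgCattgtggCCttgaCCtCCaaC
*Pth1r* A_51_P327874 (chr9:110624846-110624905, minus strand): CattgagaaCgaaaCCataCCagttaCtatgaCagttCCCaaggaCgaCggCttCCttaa
*Cyp24a1* A_52_P88648 (chr2:170308865-170308924, minus strand): tCtttattCaaagtgatgattgtaaCatat
*Slc20a1* A_55_P2115582 (chr2:129037286-129037345, plus strand): ggaCagCCttCCatgttCatCtgtCtaCCt
*Slc9a3r1* A_51_P502150 (chr11:115042133-115042192, plus strand): CaaCtaCgtgtgatgaCCaagtCCaaggtt
Positions are those the files give for the probes on the mm9 build (59 positions for A_51_P498442, which has 60 bases), and exons or untranslated regions were not annotated here.

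The labels held on the array. *Cnnm2* had a log2 ratio of knockout over control of -2.88 on array 1 and -2.46 on array 2, a mean of -2.67 ± 0.30 (SD, n = 2 arrays). *Trpm6*, a magnesium channel, had -1.40 ± 0.24, and *Pvalb*, a protein of the distal convoluted tubule, had -1.75 ± 0.33. Across the 19708 genes, however, the ratios of the arrays ran against each other (Pearson r of -0.51 and Spearman rho of -0.56, over genes, which are not independent replicates), and both arrays gave 1 direction for 27.7% of them. The dye assignment of the labels was kept. The median SD between spots of a probe within an array was 0.05 on the log2 scale over the 399 probes with 10 spots, smaller than the distance between the arrays for each of the 10 genes. Marker lists outside those given beside the results below had median log2 ratios of -0.10 for the thick ascending limb, -0.09 for principal cells, -0.18 for intercalated cells, -0.32 for podocytes, -0.08 for endothelium, -0.01 for fibroblasts, -0.01 for leukocytes, -0.21 for red blood cells, -0.14 for adipocytes and -0.31 for adrenal cortex (2 of 5 genes compared). Of a list of Y-linked genes and *Xist*, 3 of 5 genes were compared, all Y-linked, with a median of 0.12 and opposing arrays. *Xist* was not above background.

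None of the 10 genes was at least 2-fold higher or lower in the mean with the same direction on both arrays. The shares over all genes were 0.315% higher and 0.284% lower, so a count of 0 among 10 genes is what these shares lead to and is not a result about the phosphate genes. At 1.5-fold the count was also 0, against 1% higher and 1.06% lower. The mean log2 ratios ran from -0.27 for *Fgfr1* to 0.56 for *Cyp24a1*, with a median of -0.05. On array 1 alone, 1 of the 10 genes was at least 2-fold higher and none lower, against 1.95% and 2.39% of all genes, and on array 2 alone none was, against 2.19% higher and 1.36% lower. Over all genes the median of the mean ratio was -0.01 and the quartiles were -0.10 and 0.09. The same direction on both arrays was seen for 3 of 10, *Cyp24a1* higher and *Slc20a1* and *Fgfr1* lower, close to the share over all genes.

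**Figure D1:**
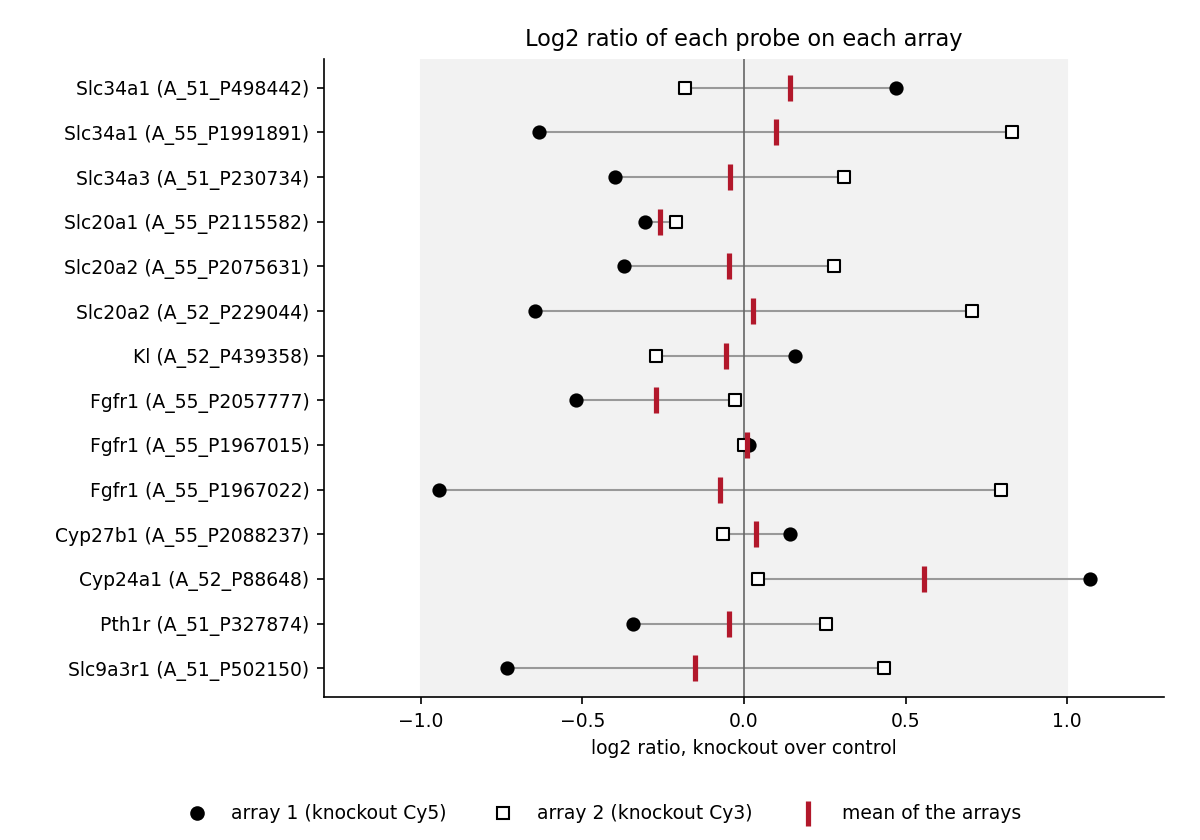
Log2 ratio of knockout over control (x axis) for the 14 probes above background (y axis, gene and probe name); filled circles are array 1, open squares array 2, red bars their mean, and the shaded band is under 2-fold. The symbols lie on opposite sides of 0 for most probes, and the one value beyond the band is *Cyp24a1* on array 1, at 1.07.

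*Slc34a1* encodes NaPi-IIa, the main phosphate cotransporter of the proximal tubule brush border. Its brighter probe, A_51_P498442, had a processed signal of 113411 in the knockout and 81896 in the control on array 1, and of 88321 in the knockout and 100239 in the control on array 2. The knockout was thus the brighter channel on array 1 and the dimmer one on array 2, with log2 ratios of 0.47 and -0.18 and a mean of 0.14 ± 0.46 (SD, n = 2 arrays). The second probe, A_55_P1991891, lies upstream of the first on the same strand. It read 34578 in the knockout and 53631 in the control on array 1, and 55787 and 31415 on array 2. Its log2 ratios of -0.63 and 0.83 had the opposite order, so that the probes of this gene disagreed in direction on each array while their means, 0.14 and 0.10, lay close together. In both probes the 2 signals of each genotype overlapped those of the other.

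*Slc34a3* encodes NaPi-IIc, the other brush border cotransporter of this family. The knockout gave a signal of 13209 and the control 17404 on array 1, and 12035 and 9715 on array 2. The log2 ratios of -0.40 and 0.31 opposed each other, with a mean of -0.04 ± 0.50 (SD, n = 2 arrays). Neither brush border cotransporter therefore had a mean ratio larger than the spread between the arrays. Markers of proximal tubule cells gave a like picture: their summed signal over 17 genes, all above background, was 740375 to 860687 in knockout channels and 713858 to 880736 in control channels, and their median log2 ratio was -0.00. In whole kidney RNA, fewer cells of a type and less RNA per cell cannot be told apart.

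*Slc20a1* encodes PiT-1, a phosphate transporter found in most tissues. Its probe A_55_P2115582 gave 4000 in the knockout and 4946 in the control on array 1, and 3074 and 3557 on array 2. The knockout was the dimmer channel on both arrays, although the knockout of array 1 was brighter than the control of array 2. The log2 ratios were -0.31 and -0.21, with a mean of -0.26 ± 0.07 (SD, n = 2 arrays), the smallest spread of the 10 genes and the one mean larger in size than its SD. Over all genes, 20.7% had a mean larger than their SD, and 7.37% had a mean at least as low as that of *Slc20a1*. The other probe of the gene, A_55_P2115577, which the files assign to another transcript, was not above background in either genotype, so no ratio of it is read as a value of the gene.

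*Slc20a2* encodes PiT-2, the related transporter. Its brighter probe, A_55_P2075631, gave 1735 in the knockout and 2244 in the control on array 1, and 1908 and 1573 on array 2, for log2 ratios of -0.37 and 0.28 and a mean of -0.05 ± 0.46 (SD, n = 2 arrays). The dimmer probe, A_52_P229044, had ratios of -0.65 and 0.70, with a mean of 0.03. Both probes were lower in the knockout on array 1 and higher on array 2.

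**Figure D2:**
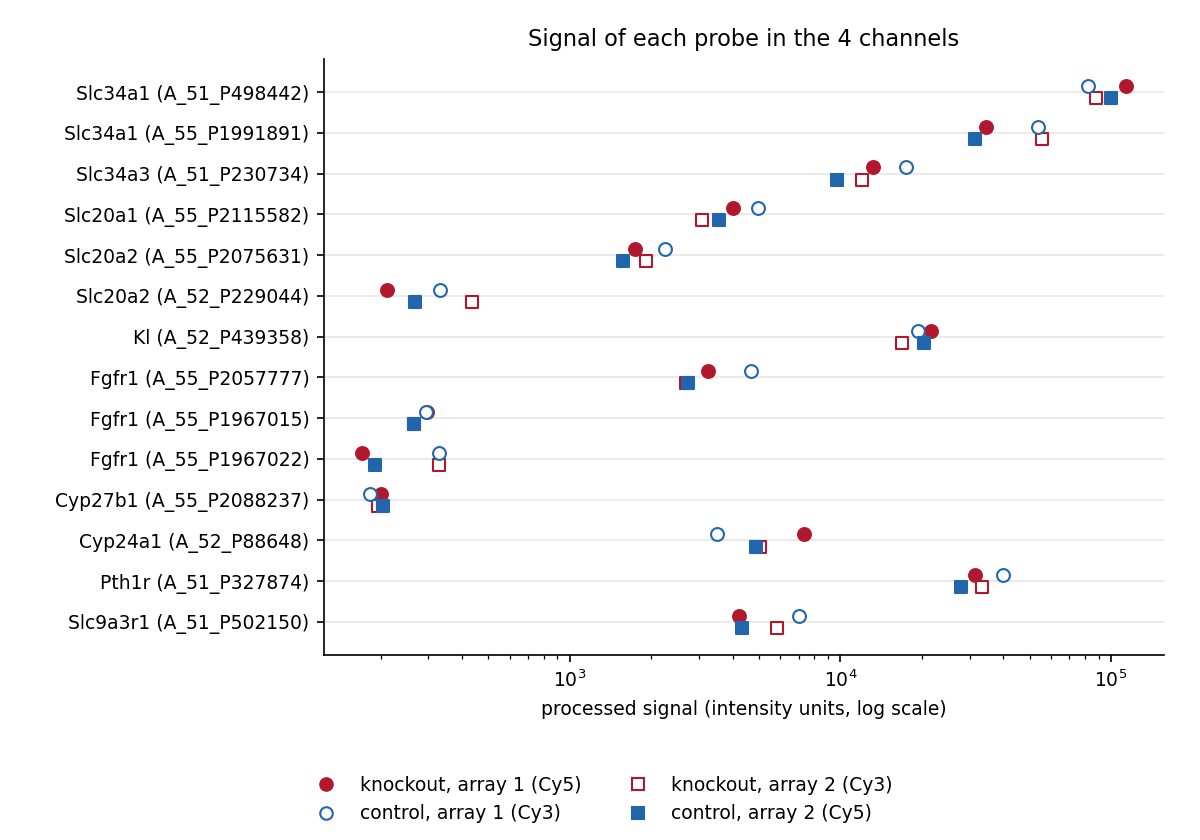
Processed signal (x axis, intensity units on a log scale) of the 14 probes above background (y axis) in the 4 channels; red is knockout and blue control, circles are array 1 and squares array 2, and filled symbols are Cy5 and open ones Cy3. For *Slc9a3r1* and the dimmest probes of *Slc34a1* and *Fgfr1* the open symbols lie to the right of the filled ones whatever the genotype. For *Cyp24a1* both knockout symbols lie to the right of both control symbols, a separation not counted over all genes. Signals of different probes are not comparable as levels.

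*Kl* encodes klotho, the coreceptor that lets FGF receptors bind FGF23, and is known for its expression in the distal tubule. The knockout gave a signal of 21636 and the control 19375 on array 1, and 16834 and 20322 on array 2. The ratios opposed each other at 0.16 and -0.27, with a mean of -0.06 ± 0.30 (SD, n = 2 arrays). Of the 9 measured markers of the distal convoluted tubule, by contrast, 3 were at least 2-fold lower (*Trpm6*, *Pvalb* and *Calb1*). The signal summed over the 9 was 38164 to 49482 in the knockout against 55149 to 56440 in the control. Only 4 of the 9 were lower on both arrays. In the rest the arrays opposed each other, among them *Slc12a3* at -0.78 and 0.19. The part of distal convoluted tubule cells in the value of *Kl* was not tested.

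*Fgfr1*, a receptor for FGF23 together with klotho, was read by 3 probes. The brightest, A_55_P2057777, gave 3249 in the knockout and 4655 in the control on array 1, and 2687 and 2737 on array 2. The channel of the control was brighter on both arrays, but on array 2 by a ratio of -0.03, and the mean was -0.27 ± 0.35 (SD, n = 2 arrays). The other probes did not show this difference. A_55_P1967015 had ratios of 0.02 and -0.00, and A_55_P1967022 had -0.95 and 0.79, with means of 0.01 and -0.08. The lower value of *Fgfr1* thus rested on 1 of the 3 probes that carry its name and on array 1.

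*Cyp27b1* encodes the 1-alpha-hydroxylase that makes active vitamin D. The knockout gave a signal of 201 and the control 182 on array 1, and 195 and 204 on array 2, in every channel above background. The log2 ratios were 0.14 and -0.07, with a mean of 0.04 ± 0.15 (SD, n = 2 arrays).

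*Cyp24a1* encodes the 24-hydroxylase that degrades vitamin D metabolites, a gene that active vitamin D and FGF23 are known to raise. The knockout gave a signal of 7349 and the control 3497 on array 1, and 5043 and 4890 on array 2. Both knockout signals lay above both control signals, and the share of all genes with such a separation was not counted. The difference came almost wholly from array 1, where the log2 ratio was 1.07, against 0.04 on array 2. The mean was 0.56 ± 0.73 (SD, n = 2 arrays), or 1.47-fold, smaller than the spread between the arrays. A mean at least as high was seen in 1.26% of all genes. With 2 arrays, an exact sign permutation test cannot give a two-sided p below 0.5. Of the marker lists, urothelium had a median log2 ratio of 0.62 and tubular injury one of 0.28. The 5 urothelium markers were all higher in the knockout on both arrays, with summed signals of 2100 to 2447 against 1409 to 1762. Of 5 markers of tubular injury, 4 were higher on both arrays and *Vcam1* was lower on both (-0.24 and -0.29). The signals summed over these 5 were 10787 to 12003 in the knockout against 8790 to 10098 in the control. For comparison, the 2 arrays ran the same way for 27.7% of all genes, and these markers were not tested against that share. The part of the cells behind these markers in the value of *Cyp24a1* was not tested.

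*Pth1r* encodes the receptor for parathyroid hormone. The knockout gave a signal of 31404 and the control 39883 on array 1, and 33285 and 27918 on array 2, giving ratios of -0.34 and 0.25 and a mean of -0.05 ± 0.42 (SD, n = 2 arrays). *Slc9a3r1* gave 4212 in the knockout and 7002 in the control on array 1, and 5849 and 4335 on array 2. Its ratios of -0.73 and 0.43 were far apart, with a mean of -0.15 ± 0.82 (SD, n = 2 arrays), the widest spread of the 10 genes. For both genes the control was the brighter channel on array 1 and the knockout on array 2, so the genotypes overlapped.

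**Figure D3:**
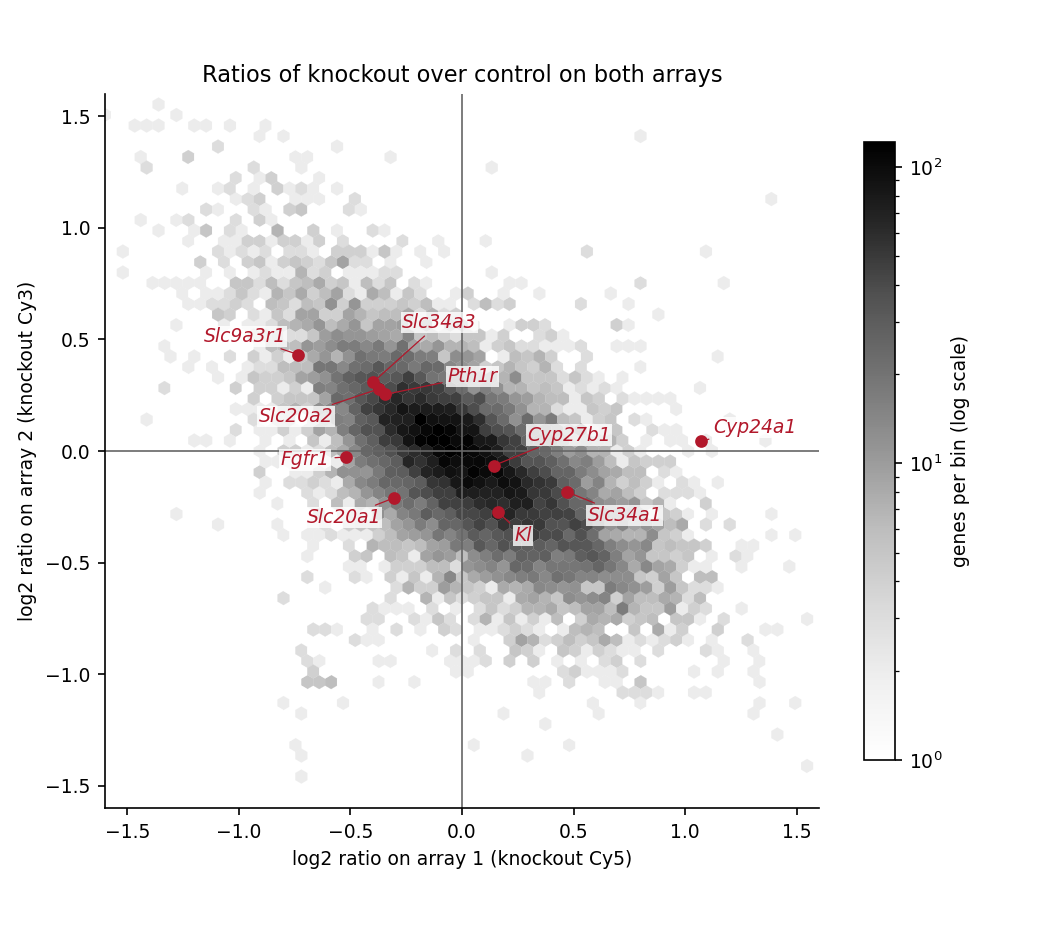
Log2 ratio of knockout over control on array 1 (x axis) and array 2 (y axis); grey bins count genes on a log scale, red points are the 10 genes, and 265 genes beyond the axes are not drawn. The cloud runs from upper left to lower right, and 7 of the 10 genes lie in the quadrants where the arrays oppose each other.

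The 7 genes with opposite directions were lower in the knockout on array 1 in 4 cases (*Slc34a3*, *Slc20a2*, *Pth1r* and *Slc9a3r1*) and higher in 3 (*Slc34a1*, *Kl* and *Cyp27b1*). Their means were between 0.04 and 0.15 in size. The difference between the dyes, taken as the ratio on array 1 minus that on array 2, divided by 2, and so Cy5 over Cy3, had a median size of 0.31 in the 10 genes and of 0.21 in all genes, against median sizes of the genotype mean of 0.10 and 0.09. Over the 24594 probes above background, this dye difference was lower in probes with more cytosine (r of -0.19) and higher in probes with more thymine (r of 0.25), with -0.03 for adenine and -0.08 for guanine. Probes with at most 10 cytosines had a median dye difference of 0.09 and those with at least 15 had -0.07. In the 14 probes of the phosphate genes the values were -0.44 for cytosine and 0.34 for thymine, and these probes share genes and arrays. The *Slc34a1* probes above, with 10 and 19 cytosines, had dye differences of 0.33 and -0.73. The *Fgfr1* and *Pth1r* probes, with 17 and 16, had -0.87 and -0.30. *Slc20a1* A_55_P2115582, with 15, had -0.05. Other probes ran against this order, among them *Slc20a2* A_52_P229044 with 9 cytosines and -0.68, *Fgfr1* A_55_P2057777 with 11 and -0.25, and *Cyp27b1* with 18 and 0.10. These are descriptions across probes and carry no test, and the part of base composition in the ratios was not tested.

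When knockout and control were compared within a dye, between the arrays, after loess and quantile normalization of the signal averages, 4 of the 10 genes had the same direction in both dyes (*Slc20a1*, *Slc20a2*, *Cyp24a1* and *Slc9a3r1*), against 42.1% of all genes. *Cyp24a1* had log2 ratios of 0.36 in Cy5 and 0.77 in Cy3, and *Slc20a1* had -0.06 and -0.44. *Slc9a3r1* had -0.27 and -0.02. *Slc20a2* had -0.06 and -0.02, and its dimmer probe had opposite directions, -0.45 and 0.54. *Fgfr1* had 0.01 and -0.55, so its direction was not held within the dyes. The genotype difference was larger than both the dye and the array difference for 2 of 10 genes, *Slc20a1* and *Cyp24a1*, against 16.7% of all genes. These counts are near the shares over all genes and single out none of the 10.

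The wider pathways gave 87 further genes in 5 lists, all with a probe, of which 76 could be compared. None was at least 2-fold higher and 1 was at least 2-fold lower, where 0.315% and 0.284% of all genes were. The same direction on both arrays was found for 24 of 76, 10 higher and 14 lower, near the 27.7% of all genes, with a median log2 ratio of -0.02. The gene beyond 2-fold was *Calb1*, the calcium-binding protein calbindin-D28k of the distal tubule, at -1.26 and -0.77, with a mean of -1.01 ± 0.34 (SD, n = 2 arrays). The call was lost in settings that changed background correction and normalization together, with the median over probes (-0.80) and on array 2 alone (-0.77). The dimmer probe of *Calb1*, A_55_P2181602, had -0.31 and -0.85, with a mean of -0.58, short of 2-fold. *Calb1* is also one of the markers of the distal convoluted tubule that were at least 2-fold lower, as given beside *Kl*.

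Of 7 distal calcium genes that vitamin D is known to raise, 3 were lower on both arrays (*Calb1*, *S100g* and *Atp2b4*) and 1 was higher (*Trpv6*), with a median of -0.19. Over all genes 27.7% had the same direction and 0.284% were at least 2-fold lower, and nothing particular to these 7 genes was tested. *S100g*, which encodes calbindin-D9k, had -0.51 on each array. *Trpv6*, an epithelial calcium channel, had 0.09 and 0.29. *Trpv5*, the related channel of the distal tubule, had 0.08 and -0.47. These counts use the brightest probe of each gene. A dimmer probe was lower on both arrays for *Calb1*, *S100g* and *Slc8a1*, and for *Atp2b1* the arrays opposed each other. That of *Slc8a1* had -0.73 and -0.27, against 0.08 and -0.04 on the brightest probe.

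**Figure D4:**
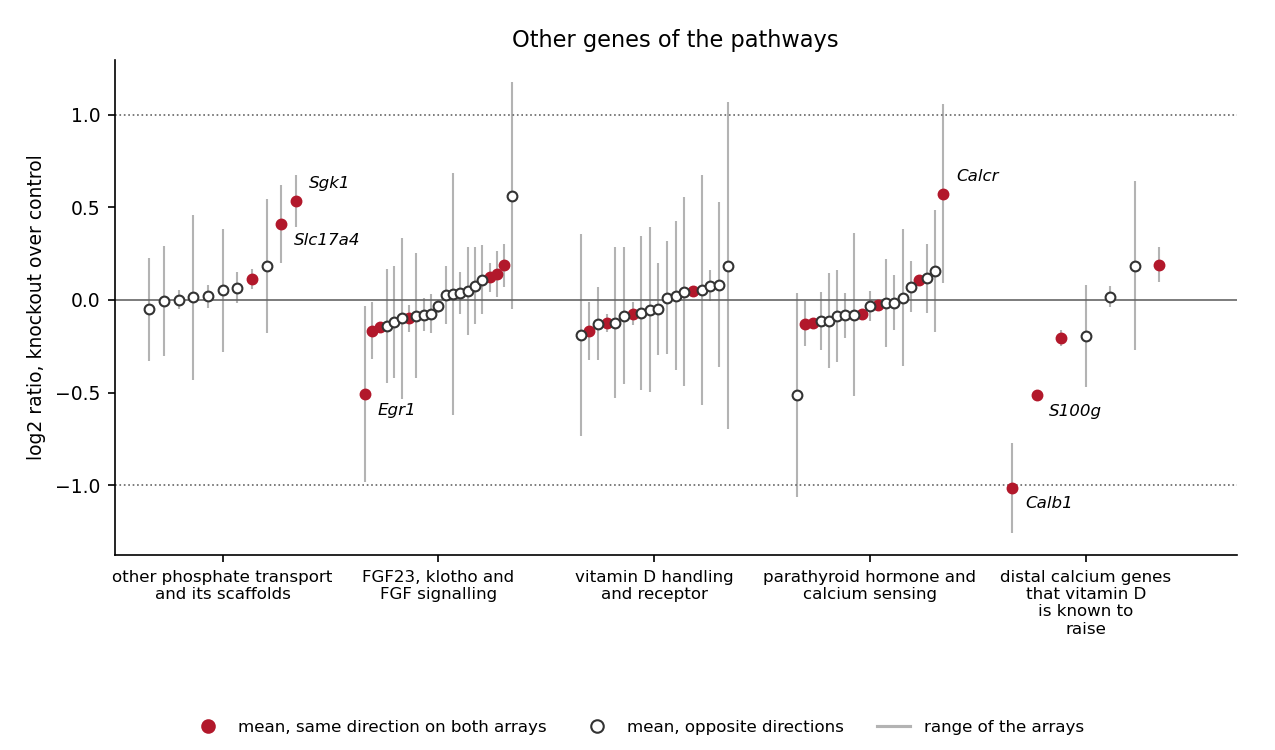
Log2 ratio of knockout over control (y axis) of the 76 compared genes in the 5 pathway lists (x axis), ordered by mean within a list; points are the mean of the arrays, red where both arrays have the same direction and open where they oppose, grey lines span the arrays and dotted lines mark 2-fold. *Calb1* is the one point beyond a dotted line.

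Among 11 other genes of phosphate transport and its scaffolds, 3 were higher on both arrays, *Slc17a3*, *Slc17a4* and *Sgk1*, and none was lower on both. *Sgk1*, a kinase that acts on many renal transporters, had 0.67 and 0.40, and *Slc17a4*, an anion transporter, had 0.62 and 0.20. The other exchanger scaffolds *Slc9a3r2* and *Pdzk1* had means of -0.05 and 0.07. The list had a median of 0.05, and *Slc34a2* and *Slc17a2* were not above background.

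Of 21 genes of FGF23, klotho and FGF signalling, 3 were higher and 4 lower on both arrays, with a median of -0.03. *Egr1*, an early response gene of FGF signalling, had -0.03 and -0.99. The receptors *Fgfr2*, *Fgfr3* and *Fgfr4* had means of 0.12, 0.04 and 0.03. *Klb*, *Dmp1*, *Phex* and *Spry2* were not above background.

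Of 18 genes of vitamin D handling, 1 was higher (*Vdr*, 0.06 and 0.03) and 3 were lower on both arrays, among them *Gc* and *Ncoa1*, with a median of -0.05. On the further probes of *Gc* and *Ncoa1* above background, the arrays opposed each other. *Vdr* encodes the vitamin D receptor. The endocytic receptors *Lrp2* and *Cubn*, which take up vitamin D bound to its carrier, had means of -0.08 and -0.13. For both the arrays opposed each other, and a second probe of *Cubn* had a mean of 0.11. *Cyp27a1*, a mitochondrial hydroxylase, had -0.70 and 1.07.

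Of 19 genes of parathyroid hormone and calcium sensing, 2 were higher (*Gnas* and *Calcr*) and 4 lower on both arrays, with a median of -0.03. *Calcr*, the calcitonin receptor, had 1.06 and 0.09, a difference carried by array 1 like that of *Cyp24a1*. *Gnas*, which encodes the G protein that *Pth1r* couples to, had 0.13 and 0.08. *Casr*, the calcium-sensing receptor, had -0.34 and 0.16. *Pde4d*, a phosphodiesterase that degrades cyclic AMP, had -1.06 and 0.04 on the 1 probe that carries its name, so its arrays opposed each other. The files describe 2 further probes, named by transcript, as this enzyme. For *Pde4d* these had 2.25 and 1.83 on A_55_P1986461 (control above background on 1 of 2 arrays), and -0.79 and -0.61 on A_55_P2010401 (knockout above background on 1 of 2 arrays). The probes of *Pde4d* thus disagreed in direction, and the counts above use the probe that carries its name. Probes named by transcript were searched neither for the other pathway genes nor for the 10 genes. Ratios of these 5 lists and of the 10 genes come from the same arrays, and none of the lists had a share of calls that was tested against the rest.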

How the data were processed

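Kidney RNA of both genotypes was measured on 2 dye-swapped arrays of 2 colours, counted as 1 replicate per genotype because nothing states separate RNA. The authors deposited Agilent Feature Extraction 10.7.3.1 output (10.5.1.1 in the submitters' notes) with signal intensity before and after background subtraction and as processed intensity, corrected for background and dye within each array. The deposited scanner ratio is a log10 ratio of red over green, and the deposited matrix a log10 ratio with the knockout on top, within 0.00492 (array 1) and 0.00483 (array 2) of the scanner's after array 2 was turned. Its array medians are 0 on both arrays. Both arrays lie on 1 slide and share the recorded scan, so no batch could be set apart.

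Processed signals were taken to log2 and turned to knockout over control by the dye labels. Control spots and marked spots (141 and 175 of 43020) were left out. The brightest of the probes of a gene was used, if both arrays placed it well above background in 1 genotype or the other (19708 genes, of which 18921 passed in both). Median signals before background subtraction were 113 to 161, over local backgrounds of 34 to 43.5. No spot of the 10 genes was saturated or marked. A gene was counted as changed at a mean of at least 2-fold with the same direction on both arrays.

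The 10 genes and all lists were chosen with earlier results of these data known, so they support nothing independently. Every one of the 10 genes is named. Of the wider lists, genes changed at least 1.5-fold with the same direction are named, as are those needed to state a small count, and further genes were named after their values were seen. The values of 1 gene of these lists are not reported here. Marker lists for nephron segments, urothelium, tubular injury and other kidney cells were read beside them. The comparison within a dye, the dye difference and the base counts were added after seeing the data. In a simulation of 19708 genes with the dye difference of these arrays, the rule of size recovered 100% of 200 genes changed by a log2 ratio of 1.5, and limma recovered 0%. The simulated dye difference cancels in the mean, and the noise had an SD of 0.1 with no spread between mice. The 100% was thus fixed by construction and does not show how the rule of size performs on these arrays. Without a dye difference limma recovered 100%, with 7 unchanged genes called. limma's counts of 0 on these arrays therefore carry no information on absence of change. Python 3.11.15, numpy 2.4.6, pandas 2.3.3, scipy 1.17.1, matplotlib 3.10.9, R 4.3.3 and limma 3.58.1 were used.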

Additional observations from a re-analysis of the deposited data

How the results depend on the processing

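With both arrays, no sign of the 10 genes turned in the 5 settings that changed their values (normexp or no background correction with loess, background-subtracted signals, processed signals with loess, median over probes). These settings reprocess the same 2 arrays, between which 7 of the 10 genes had opposite signs. The unturned signs of the means therefore do not show that a direction would repeat. In 3 other settings (the scanner's or matrix ratios, marked spots kept) the values of the 10 genes stayed within 0.001 of those reported, so these do not bear on stability at all. *Cyp24a1* stayed between 0.55 and 0.56, *Slc20a1* between -0.36 (with its probe below background averaged in) and -0.22 and *Fgfr1* between -0.27 and -0.24. Of 196 alternative values, 184 differed from the reported one by less than the spread or, for counts, by at most 1.5 times. For each of the 10 genes, a value from 1 array alone always lies within the SD between the arrays. Since 3 settings also left the values as they were, this count is no measure of stability. No gene of the 10 was called at 1.5-fold, at 2-fold on each array, by the methods' test, paired over the arrays, with a mean fold above 2 before or after adjustment, or by limma. Over all genes these gave 197 higher and 209 lower, 28 and 20, 22 and 14, 0 and 0, and 0 and 0. At an unadjusted p under 0.05, limma gave 124 and 132 and the methods' test 218 and 268 at any fold, again with 0 of the 10 genes. Pathway genes lower went from 1 to 0 with normexp, background-subtracted signals, no background correction and the median over probes, where the mean of *Calb1* was just short of 2-fold or, over probes, -0.80, and to 2 with no limit on signal, where *Pthlh* was added. With 1 array left out, those of the 10 genes higher ran from 0 to 1 (*Cyp24a1* on array 1), their median from -0.33 to 0.0090, pathway genes higher from 1 to 2 and pathway genes lower from 0 to 2. Without array 1 *Cyp27a1* was higher, and without array 2 *Sfrp4* and *Calcr* were higher and *Calb1* and *Pde4d* lower. With 1 array, a shared direction has no value. The cause of these changes was not tested.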
